A study of Mus musculus with 22 samples.

Results

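The 80 protein components of the cytosolic ribosome examined here were the protein-coding mouse genes named Rpl or Rps with a number (and an optional a, l or x), together with Rplp0, Rplp1, Rplp2 and Rpsa. They were 80 of 21911 protein-coding genes of the GENCODE M21 annotation on the GRCm38 assembly, of which 49 belong by name to the large subunit and 31 to the small one. Kinases of the Rps6k family, pseudogenes and predicted genes were left out. The rule used symbols only, so no measured value chose a member.

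The ribosome translates messenger RNA into protein. Its large subunit joins amino acids and its small subunit reads the codons. Most ribosomal protein genes are transcribed at a high rate in proliferating cells, and most of their messenger RNAs begin with a cytosine followed by pyrimidines, the terminal oligopyrimidine (TOP) motif, through which growth signals set their translation. Heterozygous loss of several of these genes causes Diamond-Blackfan anaemia, and deletion of RPS14 belongs to the 5q- form of myelodysplasia, so the family has a place in marrow disease. Acetylation of lysine 27 of histone H3 (H3K27ac) lies on the nucleosomes beside active promoters and enhancers.

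H3K27ac chromatin immunoprecipitation sequencing (ChIP-seq) was read from 3 libraries of BcorΔE9-10 Lin-cKIT+Sca-1- (KL) marrow cells. The mice were C57BL/6 males of genotype scl-Cre-ERT +; Bcorfl/y. They had received 1 mg tamoxifen on each of 5 days when 3 to 6 months old. The marrow was taken 20 weeks after the tamoxifen. The Cre recombinase is driven by an Scl stem cell enhancer and deletes exons 9 and 10 of Bcor, an X-linked corepressor gene. The KL cells are thus taken as progeny of recombined stem cells. The paper reports efficient recombination, and any share of unrecombined cells in these libraries was not tested. Every library carried the deletion and the tamoxifen. The remaining 19 of 22 samples were not used here. None of the 3 libraries came from BcorWT cells, so genotypes were not compared. Per the study's methods the cells came from separate mice, which the labels number as replicates.

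The libraries held 23410, 25963 and 23758 peaks of median width 391, 387 and 421 bp. Fold enrichment is the number of fragments at a summit over the local background used by the peak caller. The number of fragments at each summit was solved from the listed fold enrichment and p-value. Relative to the genome-wide level, that background was the same in all 3 libraries at some members (1.17 at Rpl19, 1.24 at Rpl9) and differed at others. Whether it came from each library or from a shared control was not tested. The lowest summits held 8, 8 and 9 fragments. The share of cells that carry the mark and its level in each cell cannot be told apart. Progenitor markers (Kit, Myb, Runx1, Spi1, Cebpa, Gata2 and Mpo) had a peak at the start in all 3 libraries for 7 of 7 genes. Mature myeloid markers had one in all 3 libraries for 0 of 6 genes, lymphoid markers for 0 of 4 and non-haematopoietic markers for 0 of 6.

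Of the 80 members, 77 had a peak within 2.5 kb of a transcription start site (TSS) in each of the 3 libraries, which is 96.2% (Wilson 95% interval 89.5 to 98.7%). Over all protein-coding genes the share was 43.4%. The other 3 members, Rpl10l, Rpl39l and Rpl3l, had no such peak in any library. They are l-suffix copies of Rpl10, Rpl39 and Rpl3, and Rpl10l and Rpl39l are known mainly from the testis and Rpl3l from heart and skeletal muscle. The 4th l-suffix gene, Rps27l, a target of p53, behaved otherwise, with fold enrichments of 25.5, 18.6 and 17.8. All 31 small subunit genes and 46 of 49 large subunit genes had a peak in all 3 libraries.

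The highest fold enrichment within 2.5 kb of a start had a median over members of 13.0, 12.0 and 15.2 in replicates 1, 2 and 3, against 9.07, 9.26 and 10.7 over all protein-coding genes with a peak. The members were higher in each library, by a ratio of 1.38 ± 0.0742 (SD, n = 3). An exact two-sided sign-flip permutation test over the 3 libraries gave p = 0.25, the smallest p that 3 libraries allow. The widest peak at a start had a median of 880, 862 and 948 bp for members and 676, 712 and 735 bp for all genes. That ratio was 1.27 ± 0.0492 (SD, n = 3), again above 1 in 3 of 3 libraries (exact permutation p = 0.25).

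Read against all genes with a peak, the members stood higher in the ranking by height than in the upper end of width. The median member lay at the 70.2 percentile of fold enrichment and the 66.5 percentile of width, averaged over libraries. In all 3 libraries, 23 of 77 members (29.9%) lay in the top 25% of fold enrichment, where 19.6% of the 9508 genes with a peak in all 3 libraries did. For width, 10 members (13.0%) lay in the top 25% in all 3 libraries, against 17.2% of genes. At the other end 3 members lay in the bottom 25% of fold enrichment (background 11.3%) and 2 in the bottom 25% of width (background 10.7%).

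**Figure D1:**
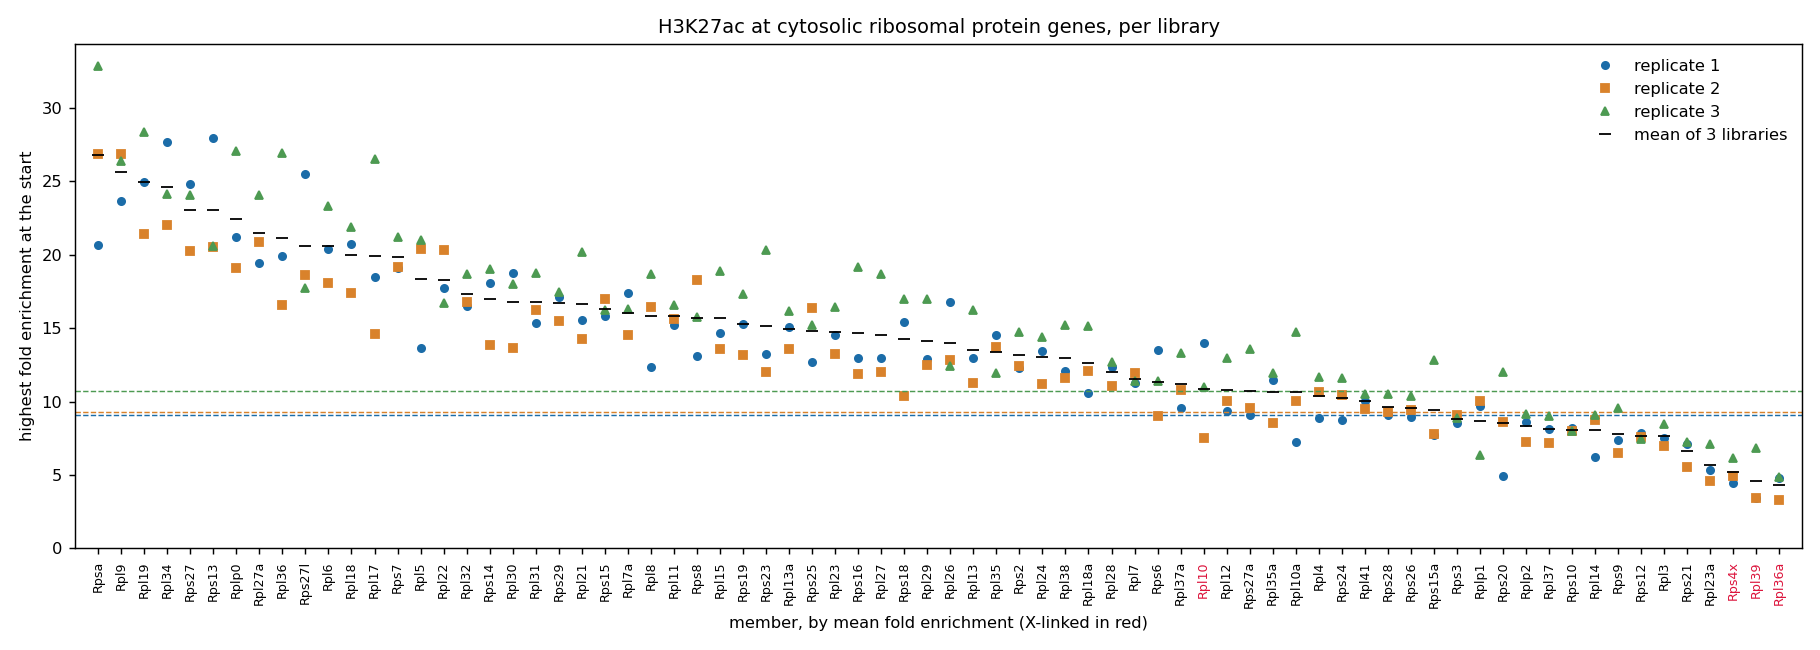
Highest fold enrichment at the start of each of 74 of the 77 members with a peak in all 3 libraries (vertical axis, ratio to local background), one symbol for each library and a black bar for the mean, with members ordered by mean along the horizontal axis and X-linked symbols in red. Dashed lines give each library's median over all protein-coding genes with a peak. Rpsa stood first at a mean of 26.8, and Rps4x, Rpl39 and Rpl36a were the last 3.

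The members differed widely among themselves. Mean fold enrichment ran from 4.32 (Rpl36a) to 26.8 (Rpsa), a 6.20-fold range, with quartiles of 10.0 and 16.8. The coefficient of variation between libraries was 16.2% at the median member and 15.4% at the median gene. Ranks of members agreed between pairs of libraries with a Spearman's rho of 0.855 to 0.890 for fold enrichment and 0.643 to 0.690 for width (77 members, which share libraries, so no p is given). Over the 9508 genes the same coefficients were 0.892 to 0.902 and 0.795 to 0.817.

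Rpsa, the small subunit protein that also serves as a laminin receptor, had fold enrichments of 20.7, 26.9 and 32.9, a mean of 26.8 ± 6.09 (SD, n = 3). Its summit held 67, 85 and 106 fragments, with exact Poisson 95% intervals of 51.9 to 85.1, 67.9 to 105.1 and 86.8 to 128. Replicate 3 was the highest and replicate 1 the lowest. Rpl9 had 23.6, 26.9 and 26.4, and Rpl19 had 24.9, 21.4 and 28.4. Both genes encode proteins of the large subunit, and the values of each spread less than those of Rpsa. Rpl34 had 27.7, 22.0 and 24.1, and Rps27 had 24.8, 20.3 and 24.1. These 5 genes were the members found among the 10 highest in all 3 libraries, and their ranges overlapped, so their order is not resolved. In the order by mean, none of the 76 neighbouring pairs of members had library ranges that did not overlap.

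The sequence of the Rpsa promoter is shown because the gene had the highest mean fold enrichment. It runs from 250 bases before the RefSeq start to 30 after it, chr9:120127516-120127795 on the plus strand of GRCm38. Capitals mark CCGGAAG, the core of sites for ETS factors, and GGGCGG, the core of sites for Sp1-type factors, each on either strand.
Rpsa: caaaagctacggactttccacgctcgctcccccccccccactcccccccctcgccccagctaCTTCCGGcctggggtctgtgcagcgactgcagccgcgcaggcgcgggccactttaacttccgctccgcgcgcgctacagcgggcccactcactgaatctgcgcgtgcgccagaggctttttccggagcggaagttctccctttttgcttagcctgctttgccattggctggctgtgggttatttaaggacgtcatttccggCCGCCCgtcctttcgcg

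The lowest 3 of the 77 members were X-linked. Rpl36a had 4.78, 3.31 and 4.88, with 13, 9 and 14 fragments at the summit (exact Poisson 95% intervals 6.92 to 22.2, 4.12 to 17.1 and 7.65 to 23.5). Rpl39 had 3.45, 3.42 and 6.83, and Rps4x had 4.44, 4.96 and 6.18. Of the 73 autosomal members 67 were above the highest of these 9 values, 6.83, in all 3 libraries. The 4th X-linked member, Rpl10, had 14.0, 7.50 and 11.0, which put it above the other 3 in every library.

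The median over the 4 X-linked members was 4.61, 4.19 and 6.50, and over the 73 autosomal members 13.0, 12.4 and 15.8. The ratio of the X-linked to the autosomal median averaged 0.369. For all genes with a peak in all 3 libraries, 227 on the X chromosome and 9277 on autosomes, the medians were 7.85, 7.61 and 8.78 against 9.45, 9.92 and 11.4, a mean ratio of 0.790. In all 3 libraries 18.1% of X-linked genes and 11.1% of autosomal genes lay in the bottom 25% of fold enrichment. The animals were male and hold 1 X chromosome, so the copy number of the locus and the acetylation of each copy cannot be told apart.

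The promoter of Rpl36a, the lowest member, is shown for contrast with that of Rpsa, at chrX:134585404-134585683 on the plus strand of GRCm38. Capitals mark GGGCGG and the TATA-box core TATAAA.
Rpl36a: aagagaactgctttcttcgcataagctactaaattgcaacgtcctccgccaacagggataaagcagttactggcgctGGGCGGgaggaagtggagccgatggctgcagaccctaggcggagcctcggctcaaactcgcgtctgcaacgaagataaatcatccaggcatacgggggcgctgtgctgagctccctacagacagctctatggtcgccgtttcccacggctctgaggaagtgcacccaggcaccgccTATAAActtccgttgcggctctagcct

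After the X-linked genes, the lowest members were Rpl23a (5.35, 4.60 and 7.10) and Rps21 (7.07, 5.52 and 7.26). Fold enrichment divides by local background, and at Rpl23a that background was 3.10 times the genome-wide level, the highest of any member. Its summits held 36, 33 and 51 fragments, above the 29, 16 and 30 of Rps21 and well above those of Rpl36a. Of the 77 members, 27, 30 and 31 in the 3 libraries had a background more than 1.5 times as high as the genome-wide one, or 35.1, 39.0 and 40.3%, where 24.3, 23.4 and 24.4% of genes did. Members above and below that level on average (34 and 43 genes) had median fold enrichments of 12.0 and 14.5. The part of reads that map equally to the many processed copies of these genes in this background was not tested.

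In width, Rpl4 stood apart from the other members, with peaks of 2083, 2085 and 2198 bp, a mean of 2122 ± 65.8 (SD, n = 3). Rpl4 shares a divergent promoter with Zwilch, a kinetochore gene, and its strongest summit lay at -704, -733 and -684 bp, on the Zwilch side of its own start. The next widest were Rps25 (1789, 1765 and 983 bp), Rpl21 (1466, 1539 and 1337 bp), Rps14 (1419, 1291 and 1512 bp) and Rpl19 (1374, 1379 and 1340 bp). Rps25 thus depended on the library, with replicate 3 close to the members' median, while the 3 values of Rpl19 differed little. The narrowest were Rpl36a (424, 213 and 368 bp), Rpl39 (343, 449 and 399 bp), Rpl23a (527, 503 and 388 bp), Rplp1 (533, 455 and 433 bp) and Rpl3 (371, 673 and 393 bp). Height and width were loosely related over members, with a Spearman's rho of 0.475, and neither followed gene length (rho 0.0971 and 0.111, described over 77 members that share libraries).

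**Figure D2:**
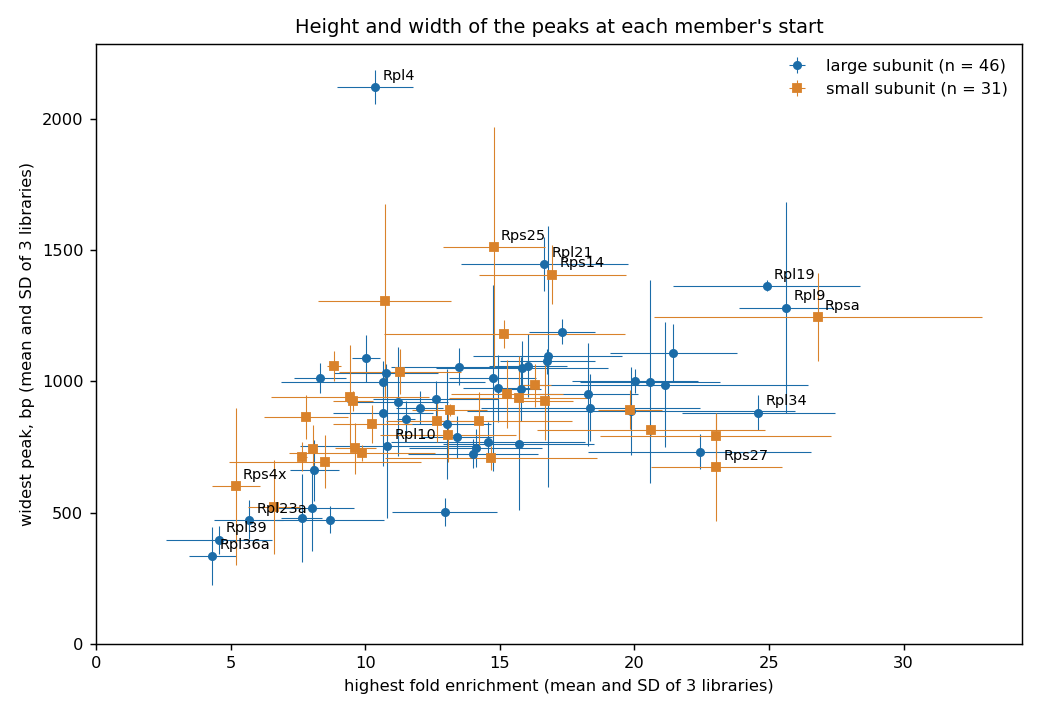
Widest peak at the start (vertical axis, bp) against highest fold enrichment (horizontal axis) for the 77 members with a peak in all 3 libraries, as means with bars of 1 SD over 3 libraries, circles for the large and squares for the small subunit. Rpl4 stood apart at 2122 bp, Rpsa, Rpl9 and Rpl19 lay far right, and Rpl36a and Rpl39 lay at the lower left.

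Large subunit genes had slightly higher peaks than small subunit genes. Median fold enrichment was 13.6, 12.7 and 16.2 over 46 large subunit genes and 12.7, 11.8 and 14.7 over 31 small subunit genes, a ratio of 1.08 ± 0.0148 (SD, n = 3) with the large subunit higher in 3 of 3 libraries (exact sign-flip permutation p = 0.25). Median width was 886, 858 and 998 bp against 802, 865 and 916 bp. The ratio of widths was 1.06 ± 0.0612, above 1 in 2 of 3 libraries (exact permutation p = 0.50), and it fell below 1 when the widths of all peaks of a gene were summed.

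The stalk of the large subunit, where translation factors bind, is formed by Rplp0, Rplp1 and Rplp2. Rplp0 had fold enrichments of 21.2, 19.1 and 27.03, Rplp1 had 9.69, 10.0 and 6.39, and Rplp2 had 8.61, 7.24 and 9.13. The values of Rplp0 lay above both partners in every library. Rps27a, which encodes a ubiquitin fused to a small subunit protein, had 9.07, 9.53 and 13.6. Fau, a fusion gene of a ubiquitin-like protein and a small subunit protein outside the naming rule, had a mean of 14.4 ± 4.06.

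The 10 members mutated or deleted in inherited or acquired anaemia all had peaks in all 3 libraries. Their median fold enrichment was 13.3, 11.8 and 14.3, and that of the other 67 members 13.0, 12.0 and 15.2. Rps7 (19.8 ± 1.18), Rpl5 (18.4 ± 4.08), Rps14 (17.0 ± 2.75), Rpl11 (15.8 ± 0.714) and Rps19 (15.3 ± 2.08), the gene most often mutated in Diamond-Blackfan anaemia, were the upper 5 by mean. Rpl35a (10.7 ± 1.84), Rps24 (10.3 ± 1.45), Rps26 (9.55 ± 0.730) and Rps10 (8.07 ± 0.131) were among the lower 5 (SD, n = 3 throughout). Rps10 varied least between libraries of all members, at 8.22, 8.001 and 7.99. Rpl5 and Rpl11 bind Mdm2 together with the 5S RNA and in that way link the ribosome to p53.

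A further 4 genes named like members but outside the rule also had peaks in all 3 libraries. Rpl36al (23.3 ± 2.59) and Rpl22l1 (22.0 ± 2.44), paralogues of Rpl36a and Rpl22, had fold enrichments above most members. Rpl36al, which is autosomal, had 21.6, 22.1 and 26.3 where its X-linked relative Rpl36a had 4.78, 3.31 and 4.88, and the values did not overlap. Rps3a1 had a mean of 11.0 ± 1.57 and Rpl7l1 of 5.62 ± 2.14.

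The peaks lay mainly downstream of the start. The strongest summit lay after the RefSeq start in 89.6, 90.9 and 88.3% of members and in 78.0, 78.4 and 78.4% of all protein-coding genes with a peak near it. The difference was 11.3 ± 1.33 percentage points (SD, n = 3), positive in 3 of 3 libraries (exact permutation p = 0.25). The median summit lay 259, 293 and 236 bp into members and 197, 196 and 195 bp into all genes. In all 3 libraries 65 of 77 members (84.4%) had the summit after the start, against 72.2% of genes. Another 4 members (5.19%) had it before the start in all 3 libraries, against 15.8% of genes.

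They included Rpl4, Rpl35a and Rpl7. Rpl35a shares a divergent promoter with Iqcg and had its summit at -110, -102 and -100 bp. At Rpl7 it lay at -682, -444 and -446 bp.

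Around the start itself a peak was less frequent at members than over all genes, which include them. A peak covered the start in 29.9, 27.3 and 33.8% of members, against 40.6, 44.3 and 46.7% of all genes. At 300 bp into the gene it covered 97.4, 98.7 and 100% of members, and 82.7, 84.5 and 85.6% of all genes. At 300 bp upstream the shares were 41.6, 46.8 and 51.9% of members and 39.9, 41.6 and 44.0% of genes. Active promoters commonly hold few nucleosomes at the start itself. At 1 kb into the gene members were still covered in 28.6, 27.3 and 40.3%, and genes in 18.1, 19.3 and 20.4%.

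**Figure D3:**
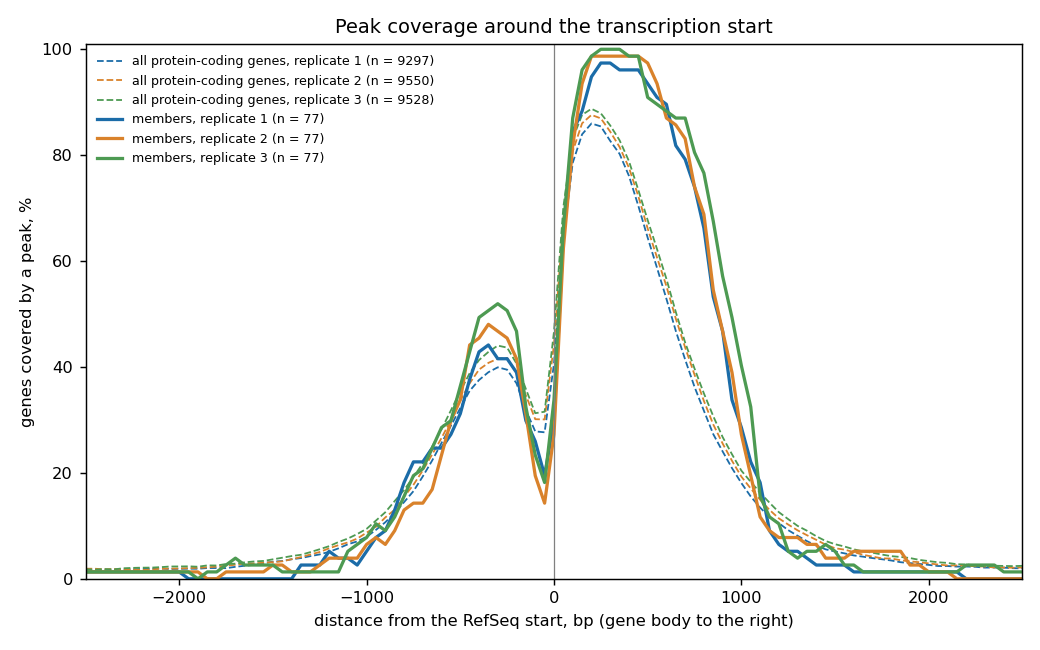
Share of genes covered by an H3K27ac peak (vertical axis, %) at each distance from the RefSeq start (horizontal axis, bp, gene body to the right), solid for the 77 members and dashed for all protein-coding genes with a peak near the start, one line for each library. At 300 bp after the start the members reached 97.4 to 100%, and at the start they fell to 27.3 to 33.8%.

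Few members lie next to each other. Among members whose starts lie within 50 kb of each other are Rps2 and Rpl3l, 7763 bp apart. Rpl3l had no peak in any library, so this pair could share none. Chromosome 7 carried 14 members, more than any other chromosome. Another protein-coding start lay within the window of 21 of 80 members (26.2%), against 27.7% of genes with a peak in all 3 libraries. The 21 had a median fold enrichment of 12.3, 12.4 and 14.7, and the other 56 with peaks 13.0, 12.0 and 16.0.

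For Rpl3 and Rpl35 the assigned peak changed with the annotated start. With the RefSeq start alone, Rpl3 had 5.61, 5.20 and 6.68 in place of 7.51, 6.95 and 8.45. Rpl35 had 7.945, 13.7 and 12.0 in place of 14.5, 13.7 and 12.0, a change in replicate 1 only.

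Many members host small nucleolar RNAs (snoRNAs), which guide modification of ribosomal RNA and are cut from introns. In total 29 of 80 members (36.2%) contained 56 annotated snoRNA genes on the same strand, with 5 in Rpl4, whereas 2.14% of genes with a peak in all 3 libraries contained any. The median fold enrichment of the 29 hosts was 13.0, 12.4 and 15.8, and of the 48 other members with peaks 13.0, 12.0 and 15.0. A divergent protein-coding start within 1 kb was annotated for 11 members (13.8%) and for 15.6% of genes with a peak. Those 11 had a median of 14.7, 13.6 and 16.3, and the 66 others 13.0, 12.0 and 15.2.

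Promoter sequences of RefSeq on GRCm38, from 250 bases before to 50 after the start, were held for 60 of 80 members (75%). Since fewer than 80% had an entry, no statement is made for the whole family, and the counts below are over the 60. A pyrimidine tract that began with C within 20 bases of the start and ran for at least 7 bases was found in 32 of 60 (53.3%), and in 21.1% of 16274 protein-coding promoters. The 31 with a tract and a peak had a median fold enrichment of 13.4 and a median width of 900 bp, and the 26 without 14.3 and 891 bp. Counted at the start itself, the TOP motif stood in 12 of 60 (20.0%), against 2.21% of the 16274 promoters. The 12 with it had a median fold enrichment of 11.7, and the 45 without 14.7. Tracts are shown because the TOP motif is the sequence the family is known for. Those printed begin at positions -4 to 0, while others counted began as far away as -20 (Rpl39) and 14 (Rpl11). Each line runs from 30 bases before the start to 30 after it, with the tract in capitals, and Rpl9 and Rpl19, which were among the 5 highest, are given as starts without one.
Rpl27a (chr7:109519165-109519224, plus): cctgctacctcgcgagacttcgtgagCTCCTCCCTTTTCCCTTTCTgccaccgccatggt
Rps10 (chr17:27635215-27635274, minus): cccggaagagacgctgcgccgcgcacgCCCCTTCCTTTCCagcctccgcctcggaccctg
Rps27 (chr3:90213619-90213678, minus): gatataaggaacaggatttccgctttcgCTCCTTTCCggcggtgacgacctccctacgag
Rps6 (chr4:86857338-86857397, minus): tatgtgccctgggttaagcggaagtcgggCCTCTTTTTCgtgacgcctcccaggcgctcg
Rpl28 (chr7:4792935-4792994, plus): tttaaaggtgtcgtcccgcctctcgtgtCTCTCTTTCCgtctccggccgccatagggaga
Rpl38 (chr11:114668550-114668609, plus): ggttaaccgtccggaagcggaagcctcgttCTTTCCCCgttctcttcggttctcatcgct
Rplp2 (chr7:141447621-141447680, plus): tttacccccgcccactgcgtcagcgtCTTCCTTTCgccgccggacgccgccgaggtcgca
Rpl9 (chr5:65391402-65391461, minus): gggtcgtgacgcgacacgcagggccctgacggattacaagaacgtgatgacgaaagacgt
Rpl19 (chr11:98026680-98026739, plus): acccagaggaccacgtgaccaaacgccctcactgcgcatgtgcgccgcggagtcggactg

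Genes with a tract thus included Rps27, among the 5 highest, and Rps10, at a mean fold enrichment of 8.07, below the members' lower quartile of 10.0. The ETS core CCGGAAG stood in 25 of the 60 promoters (41.7%) and in 12.5% of all promoters, or 22.5% of those of genes with a peak in all 3 libraries. The YY1 core AAGATGG stood in 8 (13.3%), against 6.50% of all promoters and 8.22% of those with a peak. GGGCGG stood in 35 (58.3%), against 48.9% and 67.8%. TATAAA stood in 5 (8.33%), against 12.9% and 6.04%. Each was sought on both strands, and a match is no evidence of binding. Members with and without CCGGAAG had median fold enrichments of 14.1 (24 genes) and 13.0 (33 genes).

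The promoters of Rpl39l and Rpl3l are shown because no library had a peak at either start, and the 2 differ in the motifs they hold. Rpl10l, which also had no peak, held 1 copy of GGGCGG and 13 CpG dinucleotides and is not printed. Rpl39l (chr16:10169978-10170257, plus) held 2 copies of CCGGAAG and 17 CpG dinucleotides in its 300 bases, close to the median of 21 over the 60. Its pyrimidine tract of 7 bases, which began at position -7, is not marked. Rpl3l (chr17:24727576-24727855, plus) held none of the 4 motifs and 2 CpG dinucleotides. Each is printed from 250 bases before the start to 30 after it, with motifs in capitals.
Rpl39l: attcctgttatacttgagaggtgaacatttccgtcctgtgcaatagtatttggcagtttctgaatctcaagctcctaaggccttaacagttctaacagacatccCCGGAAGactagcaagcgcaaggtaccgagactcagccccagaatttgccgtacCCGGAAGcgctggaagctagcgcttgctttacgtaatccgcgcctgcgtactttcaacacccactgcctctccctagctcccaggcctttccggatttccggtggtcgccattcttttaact
Rpl3l: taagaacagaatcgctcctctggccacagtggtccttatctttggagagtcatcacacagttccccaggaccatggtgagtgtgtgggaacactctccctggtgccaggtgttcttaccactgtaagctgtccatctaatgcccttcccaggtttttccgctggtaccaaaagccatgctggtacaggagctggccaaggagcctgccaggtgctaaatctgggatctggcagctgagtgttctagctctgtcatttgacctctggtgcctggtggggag

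Pseudogenes rarely overlapped a peak, both those named for a member with -ps and the others. Whether reads can be placed uniquely on these copies was not tested. Of 293 pseudogenes named for a member with -ps, 0 overlapped a peak in all 3 libraries and 1, Rpl36-ps2, did so in replicate 2 alone. Of 13230 other pseudogenes 104 (0.786%) overlapped a peak in all 3 libraries.

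Compared with other housekeeping families, the members stood above the mitochondrial ribosomal proteins, which are made in the cytosol for the ribosome inside mitochondria. Of those 78 genes 74 had a peak in all 3 libraries, with a median fold enrichment of 9.01, 9.85 and 10.1 and a median width of 600, 613 and 592 bp. The ratio of members to them was 1.39 ± 0.153 for fold enrichment and 1.49 ± 0.0998 for width (SD, n = 3), both above 1 in 3 of 3 libraries (exact sign-flip permutation p = 0.25 for each).

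Against subunits of the proteasome, the protease that removes tagged proteins, the ratios were smaller, at 1.12 ± 0.0529 for fold enrichment and 1.19 ± 0.0600 for width. Against the nuclear genes of oxidative phosphorylation they were 1.23 ± 0.113 and 1.31 ± 0.0463. All 4 ratios were above 1 in 3 of 3 libraries (exact permutation p = 0.25 for each of the 4, SD over 3 libraries). In each of these lists, 36 of 39 and 72 of 82 genes had a peak in all 3 libraries. Over the 11 permutation tests, Benjamini-Hochberg adjustment gave 0.275 for each exact p of 0.25 and 0.50 for the width ratio of the subunits.

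Genes that act with the ribosome were read in the same way. Of 18 translation factors and related TOP genes, 18 had a peak in all 3 libraries, with a median fold enrichment of 14.2, 15.0 and 16.6. These medians lay above those of the members in every library (13.0, 12.0 and 15.2), a difference that was not tested. Tpt1 (32.3 ± 4.54), Btf3 (31.3 ± 0.994) and Eif3e (27.7 ± 2.03) had means above that of Rpsa, although the range of each overlapped that of Rpsa. Read library by library, Tpt1 was above Rpsa in every one, and Btf3 and Eif3e were below it in replicate 3 only. The lowest was Rack1 (5.03 ± 1.21), a protein of the small subunit outside the naming rule. Of 28 ribosome biogenesis genes 26 had a peak in all 3 libraries, with a median of 10.9, 11.0 and 13.0. Ltv1 (29.9 ± 3.35), an assembly factor of the small subunit, was the highest of them.

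**Figure D4:**
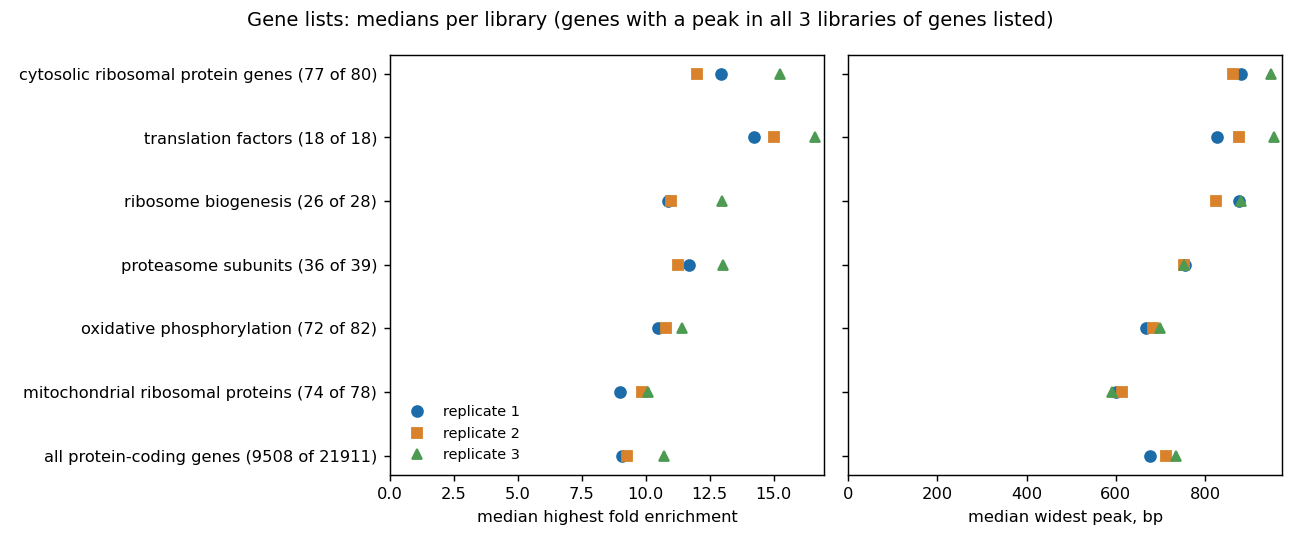
Median highest fold enrichment (left) and median widest peak in bp (right) at the start for the members and 5 other gene lists and all protein-coding genes, one symbol for each library. The numbers in brackets give the genes with a peak in all 3 libraries of the genes listed. The members lay above the mitochondrial ribosomal proteins on both axes in every library. In fold enrichment they lay below the translation factors and related TOP genes in every library.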

How the data were processed

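Members and lists were chosen with earlier results of these data known. The authors trimmed reads with cutadapt 1.7, aligned them to GRCm38 (mm10) with bowtie2, removed duplicates and called peaks in each library with MACS2 2.1.1. The control and settings used for the calls are not given in the sources used here. The deposited lists give, per summit, a fold enrichment (a ratio), a −log10 p-value, a −log10 q-value and a score, which was not used. These ratios are to the local background and carry no scaling between libraries.

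Rows were merged into peaks, and a peak was assigned to a gene when it came within 2.5 kb of any protein-coding transcript start (GENCODE M21). Positions were measured from the start shared by most curated RefSeq transcripts, available for all 80 members, after the annotated principal start proved distant for some of them. Fragments at a summit were solved from fold enrichment and p (100% of summits within the tolerance of 0.002 plus rounding). The study's methods state a depth range and the peak lists hold none. The genome-wide background corresponds to 18.0, 18.9 and 19.3 M reads if the shortest peak (200 bp) is the fragment length and the peak caller's usual mouse genome size was used. Intervals cover counting error only. The procedures recovered known values in simulated data. The library was the replicate. Named genes were the 5 highest, lowest, widest and narrowest members, those without a peak, the X-linked and l-suffix members, the stalk and ubiquitin-fusion genes and the anaemia-linked members. Where a list or group is described, its other genes were chosen after their values were seen. Python 3.11.15 with numpy 2.4.6, pandas 2.3.3, scipy 1.17.1 and matplotlib 3.10.9 was used. Some named genes are not reported here and are left out of the plot by member.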

Additional observations from a re-analysis of the deposited data

How the results depend on the processing

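The 12 summary results were recomputed under the alternatives that apply to each, 14 in all and 3 of them chosen after seeing the data, giving 147 values. Summed widths were used for the width results only, and the −log10 p-value and fragments for the fold enrichment results only. In 146 the direction was kept, and the count of members with a peak stayed within 1.5 times. The exception was the width ratio of large to small subunit genes, which was 0.997 with summed peak widths. The alternatives were windows of 1 and 5 kb, a −log10 q of at least 5, the 5-prime end of the gene model, a wider symbol rule, genes without another start in the window, each library left out, summed widths, the −log10 p-value, the RefSeq start only, fragments in place of fold enrichment, and no X-linked genes. The fold enrichment ratio of members to all genes ranged from 1.29 to 1.47. It was 1.71 with the −log10 p-value and 1.51 with fragments in its place. The ratio of the widest peak ranged from 1.21 to 1.295, and it was 1.19 with summed widths. With 1 library left out, the ratios of fold enrichment and widest peak ranged from 1.36 to 1.42 and from 1.25 to 1.295. The count of members with a peak then stayed at 77. Since no p can pass 0.05 with 3 libraries, no call could be lost. No paired analysis was possible between samples because the 3 libraries form a single group. The permutation tests compared sets of genes within each library, so they pair gene sets and not samples.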
